A study of Homo sapiens with 8 samples.

Results

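The 39 genes described here encode proteins of homologous recombination, the Fanconi anaemia pathway and the DNA damage checkpoint, and were chosen by gene symbol from what their products do. All 39 were found among the 59050 gene symbols of the count files, and all 39 were among the 16219 genes that passed the filter on low counts. RNA was sequenced from 8 xenograft tumours that H2122 cells, a long-established line of human lung cancer, had formed in mice. Of these, 4 came from parental cells (genotype WT) and 4 from cells with SMARCA4 knocked out (genotype SMARCA4 KO), and all 8 came from vehicle-treated hosts. The SMARCA4 protein is a motor subunit of SWI/SNF, which moves nucleosomes. The labels do not say how the knockout was made, whether the knockout cells were 1 clone, or which mouse strain carried the tumours, and they do not tie the samples to separate animals, so the p-values measure the spread between these samples.

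Homologous recombination repairs a broken chromosome by copying the sister DNA molecule. The broken ends are first resected to single strands, BRCA1, PALB2 and BRCA2 then load a recombinase onto them, and helicases and nucleases take apart the joined molecules once copying is done. The Fanconi proteins unhook crosslinks between DNA strands and pass the resulting break to recombination, while the kinases ATM and ATR signal breaks and stalled replication forks. Dividing tumour cells transcribe many of these genes most strongly around S phase.

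SMARCA4 itself checks the labels. It stood at 220.7 ± 16.03 CPM in the parental tumours and 27.3 ± 3.90 CPM in the knockout tumours (SD, n = 4 each), where CPM is a count scaled to reads per library, with the library size corrected by TMM (trimmed mean of M-values). Every library lay on the side that its label gives. Gene counts totalled 19785922 to 23191698 in parental and 20662882 to 21981123 in knockout libraries. All 8 epithelial markers examined (EPCAM, keratins and others) were detected in all 8 tumours, with summed levels of 6712 to 7658 CPM in the parental tumours and 5114 to 6751 CPM in the knockout tumours. Of other cell types, 8 leukocyte markers summed to 30.7 to 101 CPM in the parental tumours and 30.5 to 50.1 CPM in the knockout tumours, 8 fibroblast markers to 187 to 621 and 369 to 628 CPM, 7 endothelial markers to 7.35 to 18.0 and 8.68 to 15.3 CPM, and 7 muscle markers to 0.363 to 25.6 and 0.390 to 13.9 CPM. These sums hide markers that changed by edgeR's quasi-likelihood test: of the epithelial markers KRT7, KRT19 and CLDN4 fell to 0.612, 0.496 and 0.504 of the parental level, of the fibroblast markers LUM rose 32.03-fold and FBN1 2.98-fold, and of the endothelial markers VWF fell to 0.193 of it. The sum of the fibroblast markers was mostly COL1A1 (353 ± 164 and 447 ± 132 CPM, SD, n = 4 each, parental first), which did not pass. THY1 was at 0 in all parental and CDH5 in all knockout libraries. No marker was at 0 in all 8 tumours. The H2122 cells are human and the hosts mice, and any separation of mouse from human reads is not given. Counts on the symbols of the other cell types can come from the tumour cells or from mouse reads, which cannot be told apart here. Their sums are therefore not levels of host cell types, and the part of host cells in the results was not tested. In bulk tumour RNA, fewer cells of a type and less RNA per cell cannot be told apart.

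Most recombination and Fanconi genes did not pass the test between knockout and parental tumours, and the changes that did were small. By edgeR's quasi-likelihood test with an adjusted p under 0.05, 5 of the 39 genes rose in knockout tumours (EME1, BRIP1, FANCC, MUS81 and FANCE) and 1 fell (ATR). This is 15.4% of the genes, against 27.0% of all genes tested; genes called higher made up 13.0% of all genes tested and genes called lower 14.1%. Of the 39 genes 27 had a positive fold change, where 8192 of the 16219 genes tested did. The median log2 fold change of the 39 genes was 0.15, against 0.0035 over all genes tested. Without parental replicate 3 the median was 0.076. The largest change was a 1.53-fold rise of EME1. The 4 knockout tumours lay entirely above the 4 parental tumours for 4 of the genes and entirely below them for 1, while over all genes tested 29.3% had no overlap between the groups.

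The precision of the estimates bounds what could have been missed. The standard error of the log2 fold change ran from 0.0922 (NBN) to 0.319 (RAD54B). All 39 of the 95% intervals lay within a 2-fold change in either direction, and 27 of the 39 (69.2%) lay within a 1.5-fold change, against 47.6% of all genes tested.

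**Figure D1:**
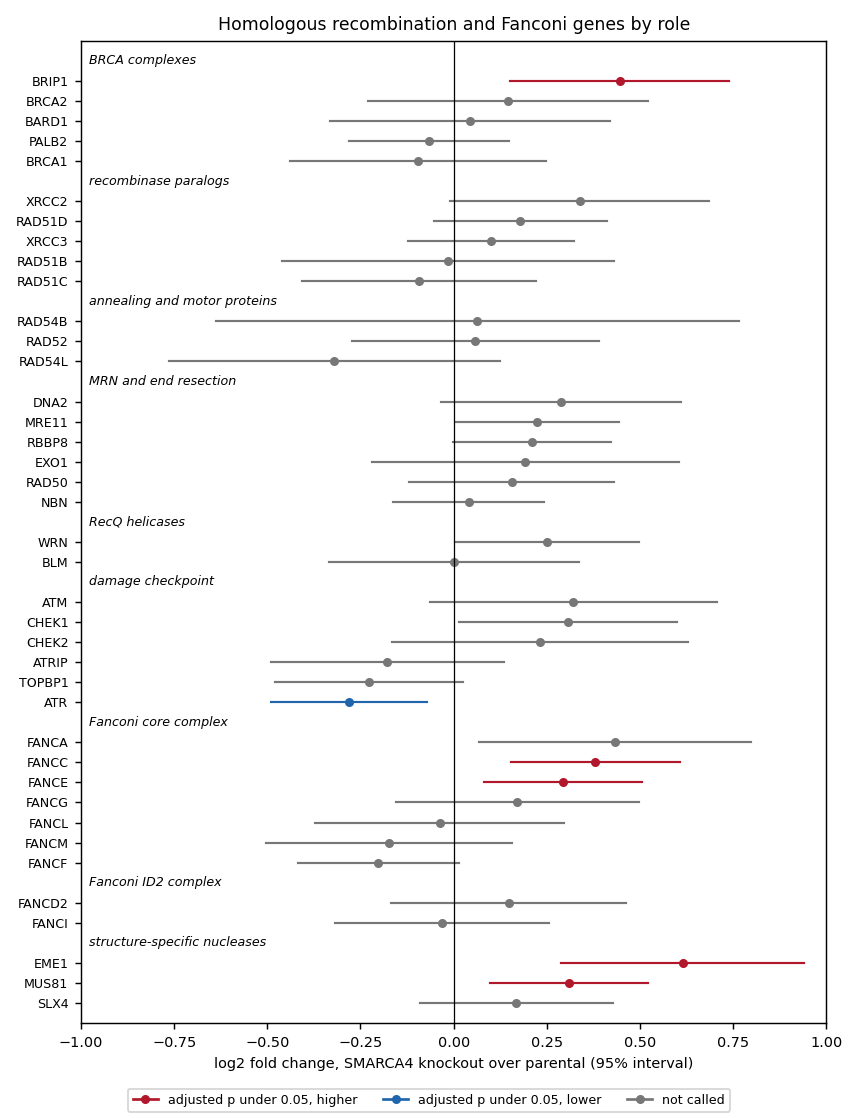
Log2 fold change of each of the 39 genes in SMARCA4 knockout over parental tumours (n = 4 each), with its 95% interval from the edgeR fit, grouped by role. Red marks the 5 genes called higher, blue the 1 called lower, and grey the genes that did not pass an adjusted p of 0.05; the points run from -0.32 (RAD54L) to 0.61 (EME1).

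The structure-specific nucleases held the largest change. EME1 and MUS81 encode the subunits of a heterodimeric endonuclease, with MUS81 as the catalytic subunit, that cuts branched DNA such as stalled forks and recombination intermediates. EME1 (chromosome 17, 50373220 to 50381483, plus strand, GENCODE 29 on GRCh38) stood at 6.99, 6.30, 6.57 and 6.68 CPM in the 4 parental tumours, given here and below as replicates 1 to 4, and at 8.55, 8.92, 10.3 and 12.8 CPM in the knockout tumours. The parental tumours were close together, and the lowest knockout tumour lay above the highest parental tumour. The mean rose from 6.63 ± 0.287 to 10.2 ± 1.94 CPM (SD, n = 4 each), with a log2 fold change of 0.61 with an SE of 0.149 (edgeR adjusted p = 0.0101). EME1 was the only one of the 39 genes that remained called in each of the 8 fits that left out 1 tumour, with log2 fold changes of 0.48 to 0.69 and adjusted p-values of 0.0106 to 0.0290, and in all 8 other analyses.

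MUS81 (chromosome 11, 65857126 to 65867653, plus strand) stood at 45.6, 43.4, 44.2 and 35.4 CPM in the parental tumours and at 55.1, 51.8, 48.5 and 53.4 CPM in the knockout tumours. The groups did not overlap, and parental replicate 4 was the lowest. The log2 fold change was 0.31 with an SE of 0.0964 (edgeR adjusted p = 0.0340). The call was lost without knockout replicate 1 (adjusted p = 0.0959), knockout replicate 2 (0.0703), knockout replicate 4 (0.0627) or parental replicate 4 (0.0635). It was also lost with no filter on low counts (0.0768) and with the replicate number as a block (0.0576). SLX4, the scaffold that holds several structure-specific nucleases, had a log2 fold change of 0.17 (95% interval -0.09 to 0.43, adjusted p = 0.327). EME2, the alternative partner of MUS81, had a log2 fold change of 0.06 (adjusted p = 0.870), and the SLX1A and SLX1B genes, near-identical copies whose reads cannot be assigned to 1 of them, had 1 count each over the 8 libraries. Per kilobase of exon the catalytic subunit was the more abundant transcript of the pair, at 7.70 ± 0.836 CPM per kb for MUS81 and 2.01 ± 0.0871 CPM per kb for EME1 in parental tumours, and 9.53 ± 0.511 and 3.08 ± 0.590 CPM per kb in knockout tumours (SD, n = 4 each).

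**Figure D2:**
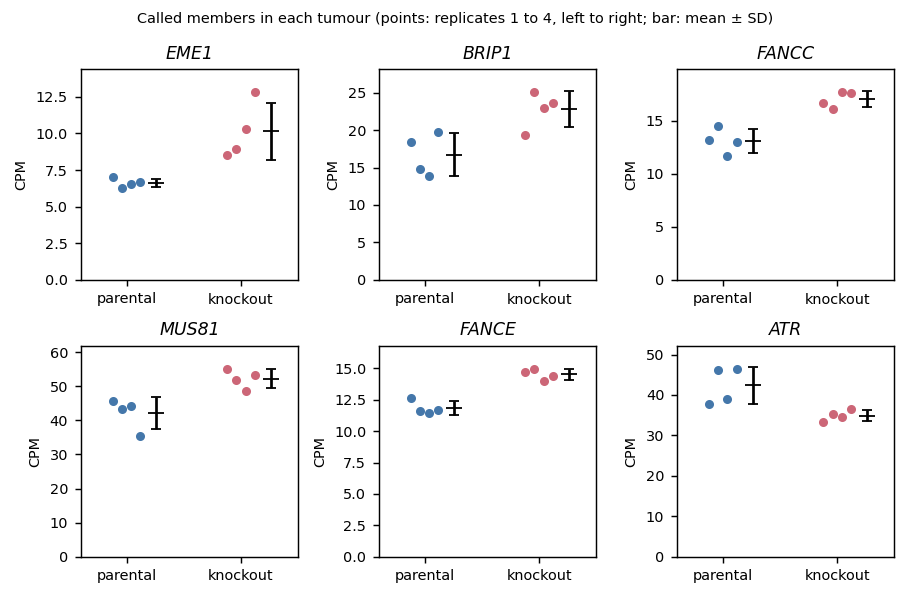
CPM in each tumour for the 6 genes that passed the test, with points for replicates 1 to 4 from left to right and the mean ± SD (n = 4) beside them; each axis starts at 0. The groups do not overlap for EME1, FANCC, MUS81, FANCE or ATR, while BRIP1 has 1 parental tumour (19.8 CPM) above the lowest knockout tumour (19.4 CPM).

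Because EME1, MUS81, BRIP1 and FANCC rose, the 250 bases before their RefSeq transcript starts (GRCh38.p14) are shown, with matches to motifs of cell-cycle and AP-1 factors in capitals. The motifs, searched on both strands, were E2F (TTTCCCGC, TTTCGCGC, TTTGCCGC or TTTGGCGC), the CCAAT box (CCAAT), the cell-cycle homology region or CHR (TTTGAA or TTCGAA) and AP-1 (TGANTCA); no match overlapped another motif in these 4 windows, and a match on the other strand appears as its reverse complement. The windows are EME1 at chr17:50372979-50373228 (plus strand), MUS81 at chr11:65860183-65860432 (plus strand), BRIP1 at chr17:61863529-61863778 (minus strand) and the more upstream of both RefSeq starts of FANCC at chr9:95317710-95317959 (minus strand).
EME1: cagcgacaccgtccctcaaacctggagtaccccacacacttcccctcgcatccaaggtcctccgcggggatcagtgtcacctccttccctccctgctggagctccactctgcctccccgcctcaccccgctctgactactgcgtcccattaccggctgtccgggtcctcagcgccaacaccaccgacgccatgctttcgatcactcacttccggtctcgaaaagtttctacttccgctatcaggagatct
MUS81: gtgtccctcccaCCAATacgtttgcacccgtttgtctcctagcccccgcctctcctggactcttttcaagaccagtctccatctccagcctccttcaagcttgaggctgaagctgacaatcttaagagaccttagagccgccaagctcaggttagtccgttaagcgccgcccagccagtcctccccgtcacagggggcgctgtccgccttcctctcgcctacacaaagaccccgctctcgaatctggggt
BRIP1: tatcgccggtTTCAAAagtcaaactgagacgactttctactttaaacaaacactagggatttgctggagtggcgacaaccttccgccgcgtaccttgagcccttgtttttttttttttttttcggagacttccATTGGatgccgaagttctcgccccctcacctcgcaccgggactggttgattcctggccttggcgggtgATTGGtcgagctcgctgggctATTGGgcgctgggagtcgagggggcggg
FANCC: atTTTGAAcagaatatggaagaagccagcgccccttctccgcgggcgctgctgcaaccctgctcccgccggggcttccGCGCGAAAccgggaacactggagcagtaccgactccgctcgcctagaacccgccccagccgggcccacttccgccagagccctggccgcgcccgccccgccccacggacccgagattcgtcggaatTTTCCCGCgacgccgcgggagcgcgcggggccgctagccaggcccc
The EME1 window held none of the motifs, the MUS81 window 1 CCAAT box, the BRIP1 window 3 CCAAT boxes and 1 CHR, and the FANCC window 2 E2F matches and 1 CHR. The windows of FANCE, of ATR and of the other FANCC start held none. RefSeq entries were found for 34 of the 39 genes, with 47 starts; DNA2, FANCI, NBN, RAD54B and WRN had no entry. A CCAAT box lay in 42.6% of these 47 windows and in 11240 of all 35116 windows of the same length, an E2F match in 4.26% and 2.79%, a CHR in 6.38% and 14.3%, and an AP-1 match in 0 and 6.57%. These are matches of letters and not sites of binding. The MUS81 and FANCC starts shown lie inside their GENCODE 29 genes. The start of EME1 lies 6 bases from that of MRPL27, a mitochondrial ribosomal protein gene read in the other direction, and the log2 fold change of MRPL27 was 0.15 with an SE of 0.0864 (edgeR adjusted p = 0.245).

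Among the genes of the BRCA complexes, which load the recombinase onto resected DNA, the helicase gene BRIP1 rose and the others did not pass the test. BRIP1 (chromosome 17, 61681266 to 61863521, minus strand), whose product binds BRCA1 and is also known as FANCJ, stood at 18.4, 14.8, 13.9 and 19.8 CPM in the parental tumours and at 19.4, 25.1, 23.01 and 23.7 CPM in the knockout tumours. Parental replicates 1 and 4 were the high ones of their group, and the lowest knockout tumour lay between them. The log2 fold change was 0.45 with an SE of 0.134 (edgeR adjusted p = 0.0295). Leaving out parental replicate 2 or 3, or knockout replicate 2, 3 or 4, ended the call, with adjusted p-values of 0.0625, 0.0741, 0.0863, 0.0673 and 0.0626. Entering the replicate number as a block ended the call as well (adjusted p = 0.0528).

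BRCA1 and its ubiquitin ligase partner BARD1 had log2 fold changes of -0.10 (95% interval -0.44 to 0.25) and 0.04 (-0.33 to 0.42). BRCA1 stood at 42.5, 33.3, 27.5 and 43.7 CPM in the parental tumours and 28.2, 32.5, 39.5 and 37.2 CPM in the knockout tumours. The parental tumours alone spanned the whole range of the knockout tumours. PALB2, which bridges BRCA1 and BRCA2, had a log2 fold change of -0.07 (95% interval -0.28 to 0.15), and BRCA2, the loader itself, 0.15 (-0.23 to 0.52).

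None of the 5 recombinase paralogs, whose products help the filament form and persist, passed the test. The smallest p was that of XRCC2, at 13.1, 10.4, 12.6 and 17.4 CPM in the parental tumours and 14.3, 17.2, 16.9 and 19.3 CPM in the knockout tumours. The groups overlapped through parental replicate 4, and the log2 fold change was 0.34 with an SE of 0.158 (edgeR adjusted p = 0.143). Without that tumour it was 0.49, with an adjusted p of 0.0241. The other paralogs had log2 fold changes of -0.09 (RAD51C), -0.01 (RAD51B), 0.10 (XRCC3) and 0.18 (RAD51D). RAD51B was the least abundant paralog per exonic length, at 0.453 ± 0.0963 CPM per kb in parental and 0.448 ± 0.0713 CPM per kb in knockout tumours (SD, n = 4 each).

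The strand-annealing protein gene RAD52 and the motor protein genes RAD54L and RAD54B, whose products remodel the filament and the invaded duplex, did not pass either. RAD54L had the smallest p of these, at 7.61, 5.47, 5.94 and 9.65 CPM in the parental tumours and 5.75, 4.49, 5.97 and 6.77 CPM in the knockout tumours. The groups overlapped, and the log2 fold change was -0.32 with an SE of 0.202 (95% interval -0.76 to 0.12, edgeR adjusted p = 0.275). RAD54B was the lowest of the 39 genes, with 12 to 28 counts in a parental and 16 to 26 in a knockout library, and its interval was the widest (-0.64 to 0.77).

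All 6 genes of end resection had positive fold changes, and none passed the test. MRE11, RAD50 and NBN encode the complex that recognises and first trims broken ends, RBBP8 encodes its cofactor CtIP, and EXO1 and DNA2 encode the nucleases of long-range resection. MRE11 had the smallest p, at 38.1, 37.5, 30.1 and 33.0 CPM in the parental tumours and 36.7, 42.7, 40.9 and 41.8 CPM in the knockout tumours. Knockout replicate 1 lay within the parental range, and the log2 fold change was 0.22 with an SE of 0.0997 (edgeR adjusted p = 0.123). Log2 fold changes were 0.29 for DNA2, 0.21 for RBBP8, 0.19 for EXO1, 0.16 for RAD50 and 0.04 for NBN. Without parental replicate 4, RBBP8 (0.29, adjusted p = 0.0238) and DNA2 (0.41, adjusted p = 0.0406) were called. NBN was the most abundant of the 39 genes per exonic length, at 14.9 ± 1.22 CPM per kb in parental and 15.3 ± 1.30 CPM per kb in knockout tumours (SD, n = 4 each).

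The RecQ helicases BLM and WRN unwind recombination intermediates. WRN stood at 24.1, 31.5, 23.4 and 30.0 CPM in the parental tumours and 31.3, 33.2, 34.6 and 30.8 CPM in the knockout tumours. Parental replicate 2 lay inside the knockout range, and the log2 fold change was 0.25 with an SE of 0.112 (edgeR adjusted p = 0.125). BLM had the smallest absolute fold change of the 39 genes (0.00085 on the log2 scale, 95% interval -0.34 to 0.34), and its sign turned with DESeq2 (-0.0068), with RLE scaling (-0.0069) and with no filter on low counts (-0.024). Its spread between tumours was 25.6 ± 6.17 CPM in the parental tumours and 25.6 ± 2.004 CPM in the knockout tumours (SD, n = 4 each).

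In the damage checkpoint, the kinase gene ATR fell while the gene of its downstream kinase CHEK1 had a positive fold change that did not pass. ATR (chromosome 3, 142449235 to 142578826, minus strand), the apical kinase of the response to stalled forks, stood at 37.8, 46.3, 39.03 and 46.5 CPM in the parental tumours and at 33.3, 35.2, 34.5 and 36.6 CPM in the knockout tumours. Every knockout tumour lay below every parental tumour, with parental replicate 1 the closest. The log2 fold change was -0.28 with an SE of 0.0948 (edgeR adjusted p = 0.0478). The call was at the edge of the threshold: limma-voom gave an adjusted p of 0.0535, upper-quartile scaling 0.0857, no filter on low counts 0.0638 and a filter of at least 1 CPM in at least 4 tumours 0.0507. It was also lost without knockout replicate 1 (0.129), 2 (0.0976), 3 (0.10997) or 4 (0.0571) and without parental replicate 2 (0.0994) or 4 (0.0902). Entering the replicate number as a block ended the call too (adjusted p = 0.0624).

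None of the genes tested here whose products recruit or activate ATR passed. ATRIP, the obligate partner of ATR, had a log2 fold change of -0.18 (adjusted p = 0.392), and TOPBP1, its activator, -0.23 (95% interval -0.48 to 0.03, adjusted p = 0.173). ETAA1, an ATR activator that acts beside TOPBP1, was at 0.11 (adjusted p = 0.526), and CLSPN, the adaptor between ATR and CHEK1, at 0.23 (adjusted p = 0.439). CHEK1 stood at 39.3, 32.4, 26.2 and 42.0 CPM in the parental tumours and 41.6, 41.9, 44.7 and 44.7 CPM in the knockout tumours. Its knockout tumours were close together and overlapped with parental replicate 4 alone. The log2 fold change was 0.31 with an SE of 0.133 (edgeR adjusted p = 0.116), and 0.40 (adjusted p = 0.0379) without that tumour.

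On the other branch of the checkpoint, ATM, the kinase activated by double-strand breaks, stood at 71.3, 104, 51.5 and 68.7 CPM in the parental tumours and 93.4, 101, 94.6 and 80.1 CPM in the knockout tumours. Parental replicate 2 was above every knockout tumour and the other 3 parental tumours were below every knockout tumour. The log2 fold change was 0.32 with an SE of 0.175 (edgeR adjusted p = 0.207), and 0.53 (adjusted p = 0.00979) without parental replicate 2. That tumour also had the highest summed leukocyte markers (101 CPM) and muscle markers (25.6 CPM) of all 8. The source of those marker counts, tumour cells or mouse reads, and their relation to the ATM value were not tested. CHEK2, the kinase below ATM, had a log2 fold change of 0.23 (adjusted p = 0.381).

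The Fanconi core complex is the ubiquitin ligase that acts on FANCD2 and FANCI. Of its 7 genes among the 39, 2 rose and none fell. Over all genes tested, 13.0% were called higher and 27.0% were called in either direction. FAAP100, a gene of that complex outside the 39, fell (log2 fold change -0.37, edgeR adjusted p = 0.0278). FANCC and FANCE encode subunits of 1 subcomplex that binds FANCD2. FANCC (chromosome 9, 95099054 to 95426796, minus strand) stood at 13.2, 14.5, 11.7 and 13.1 CPM in the parental tumours and 16.7, 16.1, 17.7 and 17.6 CPM in the knockout tumours, with no overlap between the groups. The mean rose from 13.1 ± 1.16 to 17.04 ± 0.774 CPM (SD, n = 4 each), with a log2 fold change of 0.38 with an SE of 0.103 (edgeR adjusted p = 0.0180). Among the fits that left out 1 tumour, its call was lost without knockout replicate 3 alone (adjusted p = 0.0554). The call was also lost with no filter on low counts (0.0627) and with the replicate number as a block (0.0503).

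FANCE (chromosome 6, 35452356 to 35467103, plus strand) stood at 12.6, 11.6, 11.5 and 11.7 CPM in the parental tumours and 14.7, 14.97, 14.0 and 14.4 CPM in the knockout tumours. Both groups were tight and did not overlap. The log2 fold change was 0.29 with an SE of 0.0967 (edgeR adjusted p = 0.0432), and each of the 8 fits that left out 1 tumour ended the call, with adjusted p-values of 0.0608 to 0.105. With no filter on low counts the adjusted p was 0.207, and with the replicate number as a block it was 0.0916. FANCF, the third gene of that subcomplex, had a fold change of the opposite sign (-0.20, 95% interval -0.42 to 0.01, adjusted p = 0.157).

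FANCA and FANCG encode a second subcomplex that brings the ligase to chromatin. FANCA stood at 21.3, 16.3, 18.9 and 21.8 CPM in the parental tumours and 21.2, 23.3, 25.2 and 36.2 CPM in the knockout tumours. Knockout replicate 4 was far the highest, and the log2 fold change of 0.43 (SE 0.166) did not pass (edgeR adjusted p = 0.0758). It was 0.25 without that tumour (adjusted p = 0.184) and 0.53 without knockout replicate 1 (adjusted p = 0.0481). FANCG was at 0.17 (adjusted p = 0.436). FANCL, the catalytic ligase subunit, was at -0.04 (adjusted p = 0.885), and FANCM, the translocase that anchors the complex on DNA, at -0.17 (adjusted p = 0.433).

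FANCD2 and FANCI, the pair that the ligase modifies, did not pass. FANCD2 stood at 36.7, 29.7, 32.9 and 45.6 CPM in the parental tumours and 35.6, 38.7, 37.4 and 48.9 CPM in the knockout tumours. Replicate 4 was the highest in both groups, and the log2 fold change was 0.15 with an SE of 0.143 (edgeR adjusted p = 0.487). FANCI had a log2 fold change of -0.03 (95% interval -0.32 to 0.26). Per exonic length FANCI was the more abundant of the pair, at 14.3 ± 2.49 against 4.32 ± 0.819 CPM per kb in parental tumours (SD, n = 4 each).

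**Figure D3:**
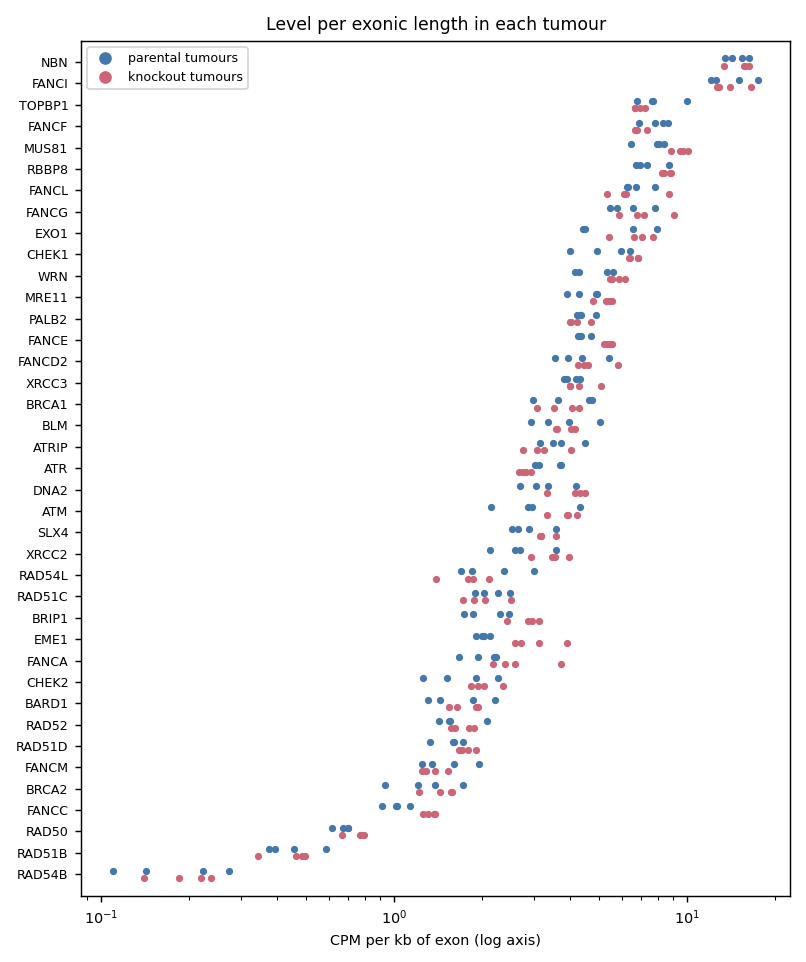
CPM per kb of exon (log axis) for each of the 39 genes, ordered by the parental mean, with 1 point per tumour (blue parental, red knockout, n = 4 each). NBN and FANCI stand at the top and RAD54B (0.188 CPM per kb in parental tumours) at the bottom, and the points of the groups overlap for most genes.

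Levels per exonic length spanned from 0.188 ± 0.0744 CPM per kb (RAD54B) to 14.9 ± 1.22 CPM per kb (NBN) in parental tumours (SD, n = 4 each). NBN and FANCI, at the top, differed by less than their spread, and the next genes, TOPBP1 at 8.04 ± 1.40, FANCF at 7.90 ± 0.775 and MUS81 at 7.70 ± 0.836 CPM per kb, did not differ beyond theirs. Some of these levels are uncertain because reads in exons shared with another gene may not be counted. In GENCODE 29, 13 of the 39 genes share no exonic base with another gene and 5 share over 25% of their exonic length: RAD50 79.7% with AC116366.3, XRCC3 76.7% with KLC1 on the opposite strand, RAD54B 59.1% with FSBP, ATRIP 27.9% with TREX1 and RAD54L 25.1% with LRRC41 on the opposite strand. Both AC116366.3 and TREX1 had 0 counts in all 8 libraries. KLC1 rose (log2 fold change 0.45, edgeR adjusted p = 0.0149) and LRRC41 fell (-0.25, 0.0427), while FSBP did not pass (-0.04, 0.908). Whether reads of KLC1 or LRRC41 entered the XRCC3 or RAD54L counts, and so their fold changes, was not tested. Of the genes that passed the test, EME1 shares 16.4% with LRRC59 (log2 fold change -0.02, adjusted p = 0.882), MUS81 14.1% with CFL1 and EFEMP2 (-0.07 and 0.62, adjusted p = 0.631 and 0.220), ATR 16.4% and FANCC 4.5% with non-coding genes on the opposite strand, and BRIP1 and FANCE none.

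The tumours of a group differed from each other across many of the 39 genes at once. Parental replicate 4 had the highest level of its group for 24 of the 39 genes and parental replicate 3 the lowest for 19. In the knockout group, replicate 4 was highest for 20 genes and replicate 1 lowest for 24. The spread of log2 CPM was larger in the parental group for 29 of the 39 genes, with a median SD of 0.225 against 0.155 in the knockout group. Over all genes tested the SD was taken on a slightly different scale, the log2 of CPM plus 0.5. On that scale it was larger in the parental group for 64.7% of them. EME1 and FANCE were the steadiest in parental tumours, with an SD of 0.0623 and 0.0639 on the log2 scale, while EXO1 reached 0.417 and RAD54B 0.596.

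Part of this pattern was shared with S-phase genes, whose part in it was not tested. The mean log2 CPM of 38 genes of DNA replication and S phase was 5.33, 4.97, 5.02 and 5.61 in the parental tumours and 4.95, 5.11, 5.26 and 5.41 in the knockout tumours. It was highest in replicate 4 of each group, as for the recombination and Fanconi genes, and lowest in parental replicate 2 and knockout replicate 1. The mean over the 39 genes was 4.30, 4.15, 4.05 and 4.41 in parental and 4.24, 4.33, 4.37 and 4.47 in knockout tumours. The groups overlapped on both measures, with group means of 5.23 ± 0.298 and 5.19 ± 0.199 for the S-phase genes and 4.23 ± 0.159 and 4.35 ± 0.0947 for the 39 genes (SD, n = 4 each, parental first).

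**Figure D4:**
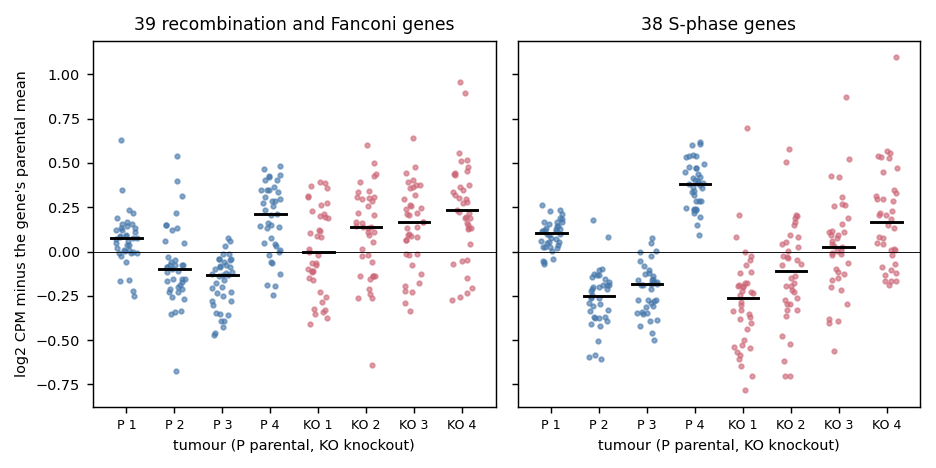
Log2 CPM of each gene minus its mean over the parental tumours, by tumour (1 point per gene, black bar the median), for the 39 recombination and Fanconi genes (left) and 38 S-phase genes (right). The medians of the 39 genes run from -0.13 in parental replicate 3 to 0.23 in knockout replicate 4, and in both panels replicate 4 has the highest median of its group.

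The S-phase level of each tumour was also entered as a covariate in the edgeR fit, a choice made after the values were seen. In that fit 5128 of the 16219 genes tested were called. Of the 39 genes 11 were called, a smaller share, with 10 higher and 1 lower. They included all 6 genes called without the covariate, together with CHEK1 (0.35, adjusted p = 0.0196), DNA2 (0.33, 0.0191), EXO1 (0.28, 0.0229), FANCA (0.46, 0.0124) and XRCC2 (0.39, 0.0115). Over all genes the covariate raised the number called from 4385 to 5128. Of the S-phase genes themselves, 3 of 38 were called without the covariate (7.89%, against 27.0% of all genes tested). Among them CCNE1, the gene of cyclin E1, rose (log2 fold change 0.77, SE 0.200, edgeR adjusted p = 0.0143), and the licensing factor gene CDT1 fell (-0.40, adjusted p = 0.0429). The CDT1 call was lost with upper-quartile scaling (adjusted p = 0.0677) and with limma-voom (0.0528), and it held in 2 of the 8 fits that left out 1 tumour. Among 19 E2F, RB and DREAM genes, which drive or repress S-phase transcription, TFDP2 alone was called (-0.60, SE 0.0960, adjusted p = 0.000852). This is 5.26% of them, against 27.0% of all genes tested.

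Other genes of the same pathways, taken from a list by function, were called as follows. Of 68 such genes 66 were tested, with a median log2 fold change of -0.03, and 7 were called (10.6%, against 27.0% of all genes tested), 3 higher and 4 lower. SFR1, whose product with SWI5 assists the recombinase, rose from 15.5 ± 1.30 to 26.7 ± 1.77 CPM (SD, n = 4 each), with a log2 fold change of 0.78 with an SE of 0.0985 (edgeR adjusted p = 0.000163), and kept its call in every fit. Its partner SWI5 was at 0.04 (adjusted p = 0.850). MCM9, a helicase gene of recombination, rose (0.34, adjusted p = 0.0308), but its partner MCM8 did not pass (0.22, adjusted p = 0.326).

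TP53BP1, whose product 53BP1 restrains end resection, fell from 57.8 ± 2.73 to 44.3 ± 1.602 CPM (SD, n = 4 each), with a log2 fold change of -0.38 with an SE of 0.0763 (edgeR adjusted p = 0.00318), and kept its call in every fit. Downstream of it, RIF1 was at -0.31 (adjusted p = 0.134), and the shieldin genes were at -0.13 (SHLD1, adjusted p = 0.609), 0.26 (SHLD2, 0.0499, a call) and 0.16 (SHLD3, 0.636). SWSAP1, which acts with the recombinase paralogs, fell (-0.47, adjusted p = 0.0484), and so did FAAP100 (-0.37, adjusted p = 0.0278), a partner of FANCL in the Fanconi core complex, and the translesion polymerase gene REV1 (-0.27, adjusted p = 0.0471). The MCM9, SHLD2, SWSAP1, FAAP100 and REV1 calls were each lost in most of the 8 edgeR fits that left out 1 tumour. They held in 3, 2, 0, 3 and 2 of those fits, with adjusted p-values of up to 0.0838, 0.139, 0.111, 0.0843 and 0.108. Their fold changes kept the same sign in every such fit. REV1 was chosen for naming after its value was seen, since the naming rule stopped at 3 genes in each direction.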

How the data were processed

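Each tumour has 1 deposited file of raw counts by gene symbol. TopHat2 2.1.1, HTSeq 0.11.0 and the build hg38 are named, per the submitters' processing notes; the annotation, the strand setting and any separation of mouse from human reads are not given in the sources used here. The 5 summary lines of each file (79.1% to 85.2% of reads were assigned to a gene) stayed out of library sizes and tests. Every pair of libraries differed beyond sampling noise (chi-square per degree of freedom at least 8.21).

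Counts were fitted with edgeR 4.0.16 in R 4.3.3: filterByExpr (minimum count 10, minimum total 15), TMM, the quasi-likelihood F-test of knockout against parental with no covariate, and Benjamini-Hochberg adjustment over all 16219 genes with a threshold of 0.05. Alternatives were DESeq2 1.42.0, limma-voom (limma 3.58.1), 2 other scalings, 2 other filters, the replicate number as a block, and leaving out each tumour. Same-numbered tumours did not deviate together, so no pairing was used. The S-phase covariate was added after the data were seen.

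The genes described and the other lists were chosen with earlier results of these data known. Genes called were named with full values; in a role group with no call, the gene with the smallest p was; of another list, all calls up to 6, otherwise the 3 highest and 3 lowest. A called gene of a list that the text does not name is not reported here. Exonic lengths are unions of GENCODE 29 exons.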

Additional observations from a re-analysis of the deposited data

Results flagged for a closer look

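In 112 sets of 4 values (the CPM of each named gene in each group), 4 had a tumour far from the other 3, by a gap above Dixon's 95% critical value, which chance passes in about 1 set in 20. FANCF was at 21.7 CPM in knockout replicate 1, with the remaining 3 of its group at 19.7 to 19.9 CPM. SLX4 was at 30.7 CPM in the same tumour, against 27.2 to 27.3 CPM in the others. MCM9 was at 17.6 CPM in knockout replicate 4, against 19.7 to 20.04 CPM. SWSAP1 was at 4.20 CPM in parental replicate 3, against 3.66 to 3.73 CPM.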

How the results depend on the processing

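SMARCA4 stayed called at log2 fold changes of -3.08 to -2.93 in every alternative, and the median of the 39 genes stayed at 0.076 to 0.20. Of the 39 genes, 6 were called in the reported fit; 2, both higher, were called with no filter on low counts, where calls over all genes went from 4385 to 4902. With the S-phase covariate 11 were called, 10 higher, where 5128 were called over all genes. Fits that left out 1 tumour called 2 to 7, with 2 to 7 higher and 0 to 1 lower, and 3501 to 4721 over all genes. No gene was called lower with limma-voom, upper-quartile scaling, no filter on low counts or the stricter filter (0 each). Replicate numbers did not pair the tumours: same-numbered tumours correlated at -0.04, -0.01, -0.22 and 0.09 in their deviations, and each had a higher correlation with another number. With the replicate block 1 gene was called, higher, and 0 lower, with 3871 calls over all genes. That gene was EME1, and the block also gave 4 calls in the other recombination and Fanconi genes.

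The other recombination and Fanconi genes (7 calls) gave 3 with no filter and 2 to 8 when a tumour was left out, end-joining genes (6) 2 to 5, S-phase genes (3) 1 to 6, and E2F and DREAM genes (1) 1 to 3. S-phase calls were 5 with DESeq2, and E2F and DREAM calls 2 with no filter and 2 with the S-phase covariate. With that covariate S-phase calls were 10. The covariate is the mean of these same S-phase genes, so that count cannot be read as a result about them. Signs turned, always without a call, for BLM (-0.0068 with DESeq2, -0.0069 with RLE, -0.024 with no filter), and with upper-quartile scaling for FANCI (0.010), FANCL (0.0049) and RAD51B (0.024); FANCI was at 0.014 with the covariate. When a tumour was left out the ranges crossed 0 for BARD1 (-0.067 to 0.19), BLM (-0.11 to 0.16), FANCI (-0.12 to 0.074), FANCL (-0.20 to 0.053), NBN (-0.0039 to 0.10), RAD51B (-0.10 to 0.13), RAD52 (-0.010 to 0.18) and RAD54B (-0.12 to 0.28). The cause was not tested. Depth limits RAD54B most, at 12 to 28 counts a library.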

Other observations

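Genes of end joining, the other main route of break repair, gave 6 calls among 15 tested genes (where 27.0% of all genes tested were called), 3 in each direction, with a median log2 fold change of 0.01. PAXX, whose product stabilises the Ku-bound end, rose from 18.3 ± 2.43 to 25.8 ± 1.66 CPM (SD, n = 4 each; log2 fold change 0.50, edgeR adjusted p = 0.00672). The ligase gene LIG4 (0.37, adjusted p = 0.0421) and CYREN, an inhibitor of classical end joining (0.26, 0.0468), rose as well. XRCC1, a scaffold of single-strand break repair, fell from 37.8 ± 3.18 to 28.3 ± 1.76 CPM (SD, n = 4 each; -0.42, edgeR adjusted p = 0.00646). The damage sensor gene PARP1 (-0.34, adjusted p = 0.0147) and DCLRE1C, the gene of the nuclease Artemis (-0.36, 0.0464), also fell. PAXX and XRCC1 kept their calls in all 8 fits that left out 1 tumour, PARP1 in 7 (adjusted p = 0.0567 without knockout replicate 1), LIG4 and CYREN in 2 and DCLRE1C in 1.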
